A study of Mus musculus with 3 samples.

Results

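The region described is the part of mouse chromosome 10 that holds Cdh23 and the gene nested within it, Vsir, at chr10:60284001-60716000 of build GRCm38. Its members are the 2 kb windows of the H3K36me3 table in that interval, 214 windows of 1186323 valid windows in the whole series. The interval has 216 window positions, of which 2 were not among the authors' valid windows. The region was picked by the deposited H3K36me3 values themselves, for the longest stretch of reproducible enrichment, so those levels are given as a description and are not tested.

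H3K36me3 (trimethylation of histone H3 at lysine 36) was measured with an ultra-low-input form of native ChIP-seq, in which chromatin cut by micrococcal nuclease is precipitated without crosslinking. All samples belonged to a single group of 3 replicate pools, each of about 280 germinal vesicle (GV) oocytes from wildtype C57BL6/Babr mice aged 25 days. Per the methods, less antibody was used for replicate 2 than for the others. H3K27me3 and H3K4me3 were given by the authors as enrichment calls for each window, taken from libraries that the same laboratory had published before, with 1 call per window and no replicates. Nothing in the labels gave the mice behind each pool, so the spread between replicates may be partly technical.

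H3K36me3 is laid down over the bodies of transcribed genes by the methyltransferase SETD2, which travels with elongating RNA polymerase II, and in growing oocytes it is known as the mark over which most DNA methylation is gained. H3K27me3 is written by Polycomb repressive complex 2 and is mostly found at silent genes. H3K4me3 marks promoters, and in oocytes it also forms broad domains away from them. Cdh23 encodes cadherin 23, a very long cadherin of the tip links that join the stereocilia of inner ear hair cells. Vsir encodes VISTA, an immune checkpoint receptor of leukocytes, and lies on the opposite strand inside a Cdh23 intron.

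In all, 5 genes overlapped the region. Cdh23 (ENSMUSG00000012819.15) lies on the minus strand at chr10:60302748-60696490, a length of 393.743 kb, with 16 annotated transcripts and 195 windows. Its transcripts used 2 main starts 39.2 kb apart, an outer start at 60696490 and an inner start at 60657333. Vsir (ENSMUSG00000020101.14) lies on the plus strand at chr10:60346851-60372684 and had 13 windows. No exon of Cdh23 fell within Vsir, with 0 shared exon bases. Psap, which encodes the lysosomal protein prosaposin, ends on the plus strand just beyond the Cdh23 end. Gm17455 is a predicted coding gene nested in Cdh23, and Slc29a3, a nucleoside transporter gene, lies beyond the outer Cdh23 start.

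The 250 bases before each start are shown because the marks at these starts differed, as described further on. They are written 5' to 3' along the strand of the gene, from build GRCm38, with each CG dinucleotide in capitals. The outer Cdh23 sequence is chr10:60696491-60696740 on the minus strand and the inner is chr10:60657334-60657583 on the minus strand. The Vsir sequence is chr10:60346601-60346850 and the Psap sequence chr10:60277378-60277627, both on the plus strand. The outer Cdh23, Vsir and Psap sequences matched the RefSeq promoter table for GRCm38.p6, and the inner Cdh23 sequence was read from the RefSeq genome of that build.
Cdh23 outer start: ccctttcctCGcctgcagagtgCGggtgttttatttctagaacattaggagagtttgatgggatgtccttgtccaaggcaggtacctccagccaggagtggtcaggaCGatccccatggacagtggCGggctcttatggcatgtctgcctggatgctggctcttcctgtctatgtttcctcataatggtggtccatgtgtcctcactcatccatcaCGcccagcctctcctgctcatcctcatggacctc
Cdh23 inner start: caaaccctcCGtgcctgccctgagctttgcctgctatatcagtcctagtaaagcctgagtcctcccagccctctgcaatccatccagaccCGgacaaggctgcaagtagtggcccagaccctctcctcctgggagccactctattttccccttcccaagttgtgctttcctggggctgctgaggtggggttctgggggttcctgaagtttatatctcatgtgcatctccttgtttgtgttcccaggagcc
Vsir start: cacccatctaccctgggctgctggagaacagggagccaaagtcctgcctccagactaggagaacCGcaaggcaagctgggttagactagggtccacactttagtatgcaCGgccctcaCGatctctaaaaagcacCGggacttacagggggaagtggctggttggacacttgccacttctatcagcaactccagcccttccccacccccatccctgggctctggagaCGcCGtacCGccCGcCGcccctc
Psap start: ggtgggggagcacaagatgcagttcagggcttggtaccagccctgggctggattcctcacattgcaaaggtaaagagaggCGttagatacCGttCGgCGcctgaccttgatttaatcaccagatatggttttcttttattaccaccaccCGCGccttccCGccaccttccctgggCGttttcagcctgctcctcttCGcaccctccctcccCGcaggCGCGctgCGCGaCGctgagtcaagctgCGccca

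The CG count, which is the same on both strands, was 5 at the outer Cdh23 start, 2 at the inner Cdh23 start, 9 at the Vsir start and 16 at the Psap start. The median over 32851 RefSeq promoter sequences cut to the same 250 bases was 6. At least as many CG dinucleotides were present in 55.6% of those promoters for the outer Cdh23 start, 81.2% for the inner Cdh23 start, 40.3% for the Vsir start and 25.4% for the Psap start. Both main Cdh23 starts were thus below the median and the Vsir and Psap starts above it, with the fewest CG dinucleotides at the inner Cdh23 start. Transcript Cdh23-206 has a further start at 60687257, for which no sequence is shown. Its window, chr10:60686001-60688000, had 81.5 CG dinucleotides per kb, the most of any window in the region. That window had H3K4me3 and H3K27me3 calls.

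The replicates held 7888140, 2692510 and 3166564 reads in valid windows. Values rose in steps of 1 read, worth 0.136, 0.396 and 0.338 RPKM in replicates 1 to 3, and 100% of them came to whole reads within 0.01 of a read. An RPKM above 1, the threshold the authors used on the mean of the 3 replicates, therefore took 8 reads in replicate 1 and 3 reads in each of the others. The label of the cells was checked on genes listed for this purpose: the mean over the gene was above 1 for 10 of 10 oocyte genes, 3 of 10 granulosa cell genes and 2 of 10 leukocyte genes, against 53.6% of all 20450 protein-coding genes measured. The levels were 1.28 to 3.82 RPKM for the oocyte list, 0.298 to 2.01 for the granulosa cell list and 0.228 to 2.44 for the leukocyte list. The common leukocyte gene Ptprc, the lowest of its list, was at 0.228 ± 0.059 RPKM (SD, n = 3). The follicle-stimulating hormone receptor gene Fshr was at 0.353 ± 0.032. Other members went the other way, the highest being Cd68 of the leukocyte list at 2.44 ± 0.31 RPKM. In the granulosa cell list the highest was Nr5a2 at 2.01 ± 0.20.

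H3K36me3 covered nearly all of Cdh23 and all of Vsir. A mean above 1 was found in 187 of the 214 windows of the region, where 31.8% of all valid windows had one, and 172 windows were above 1 in each of the 3 replicates, where 19.7% of all valid windows were. These shares are what the region was picked by, and nothing is read from them. Cdh23 had 178 of 195 windows above 1 and Vsir 13 of 13. The mean level along Cdh23 was 3.11, 3.30 and 3.14 RPKM in replicates 1 to 3, a mean of 3.18 ± 0.10 (SD, n = 3). The replicates were close for the gene as a whole although single windows varied widely, from 0.136 to 7.56 RPKM in the mean of the replicates.

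Among the 5 genes, the order of the levels was Gm17455, Vsir, Cdh23, Psap and Slc29a3. Gm17455, with only 2 windows, had 4.27 ± 0.75 RPKM (SD, n = 3). Vsir had 3.30, 3.81 and 2.71 RPKM in replicates 1, 2 and 3, a mean of 3.27 ± 0.55. Gm17455, at 3.46, 4.95 and 4.40 RPKM, was above Vsir in each replicate, although the ranges of their replicate values overlapped. The replicate values of Vsir spanned those of Cdh23, and their order was not shared by the replicates. Psap, at 2.05, 3.07 and 2.74 RPKM over its 12 windows, was below Cdh23 in each replicate. Slc29a3 had 0.557 ± 0.16 RPKM over 20 windows, and its replicates, at 0.372 to 0.665 RPKM, lay far below those of the other 4 genes.

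**Figure D1:**
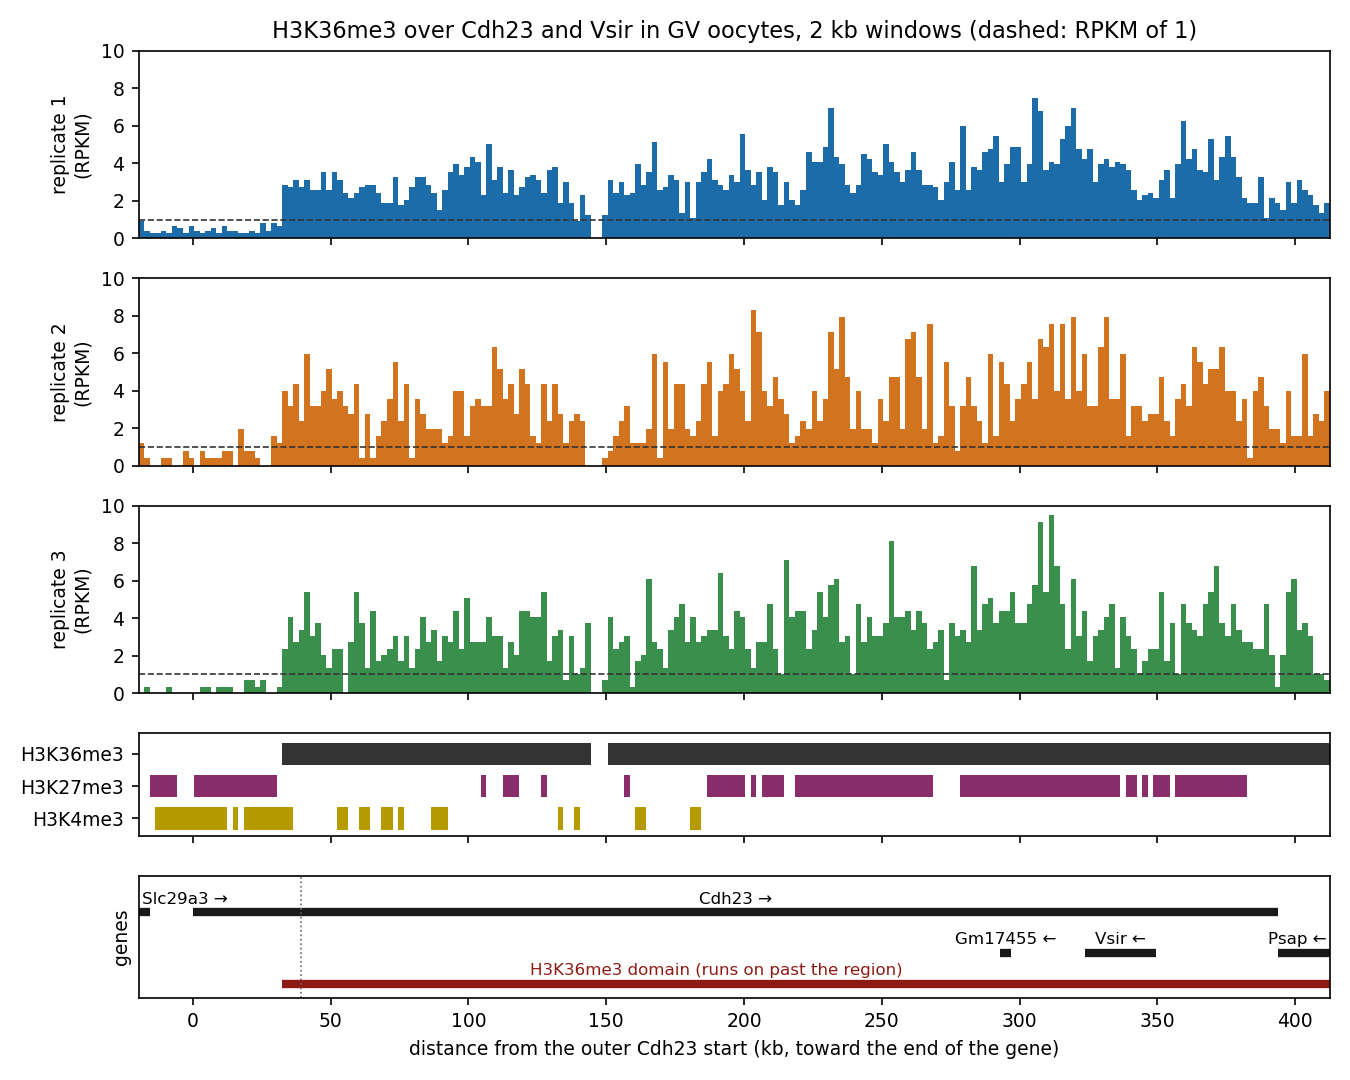
H3K36me3 RPKM in each 2 kb window of the region in replicates 1 to 3 (bars, linear axis), with the authors' calls for the 3 marks and the gene positions below, against the distance from the outer Cdh23 start in kb. Arrows give the direction of each gene and the dotted line the inner Cdh23 start. The mean of the replicates rises above 1 at 32.5 kb from the outer start, H3K27me3 calls fill most of the part nearer the gene end, and H3K4me3 calls lie in the part nearer the gene start; the gap near 150 kb holds 1 window below the threshold and 2 windows that were not valid.

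The borders did not coincide with the ends of Cdh23. Windows with a mean above 1, joined over at most 2 measured windows below it, formed a domain of 386 kb at chr10:60278001-60664000. It held 191 measured windows, 190 of them above 1 and 175 above 1 in each replicate, with a mean of 3.38 ± 0.12 RPKM (SD, n = 3). The only measured window below the threshold had a mean of 0.765 RPKM and lay beside the 2 positions that were not valid. Counted with those 2 positions as a gap, the domain was 268 kb long. The 386 kb domain was number 96 by length of 35678 domains joined in this way over the genome, whose median length was 6 kb.

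At the Cdh23 end the signal ran on through Psap without a border. The windows over the seam between the genes had means of 4.12, 1.57, 1.41 and 2.06 RPKM in order from Psap into Cdh23, the lowest of which held the end of Cdh23. The border was reached only at the far end of Psap, in a window that began 374 bases after the Psap start. Over the 5 windows inside this border the means were 1.68, 3.65 and 1.62 RPKM in replicates 1 to 3. Over the 5 windows outside it was 0.462, 0.793 and 0.203 RPKM. The step was 2.36 ± 0.58 on the log2 scale (SD, n = 3), with the inside mean higher in 3 of 3 replicates. In replicates 1 and 2 the windows inside were all above those outside, in replicate 2 with 2.38 to 5.15 RPKM against 0.396 to 1.59, whereas in replicate 3 the lowest window inside, at 0.677 RPKM, was level with the highest outside.

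On the start side the border lay between the 2 Cdh23 starts. The domain ended 6.67 kb upstream of the inner start and 32.5 kb inside the gene as measured from the outer start, so that 91.7% of Cdh23 was covered. Over the 5 windows inside, the means were 2.91, 3.96 and 3.59 RPKM in replicates 1, 2 and 3. Over the 5 windows outside they were 0.598, 0.634 and 0.271 RPKM. The step was 2.88 ± 0.75 on the log2 scale (SD, n = 3), and in each replicate every inside window was above every outside window. The drop took place from a window to its neighbour: the last window inside had 2.85, 3.96 and 2.37 RPKM, and the next had 0.679, 1.19 and 0.338. In reads, 22, 8 and 4 were counted in the 5 windows outside, against 107, 50 and 53 inside.

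**Figure D2:**
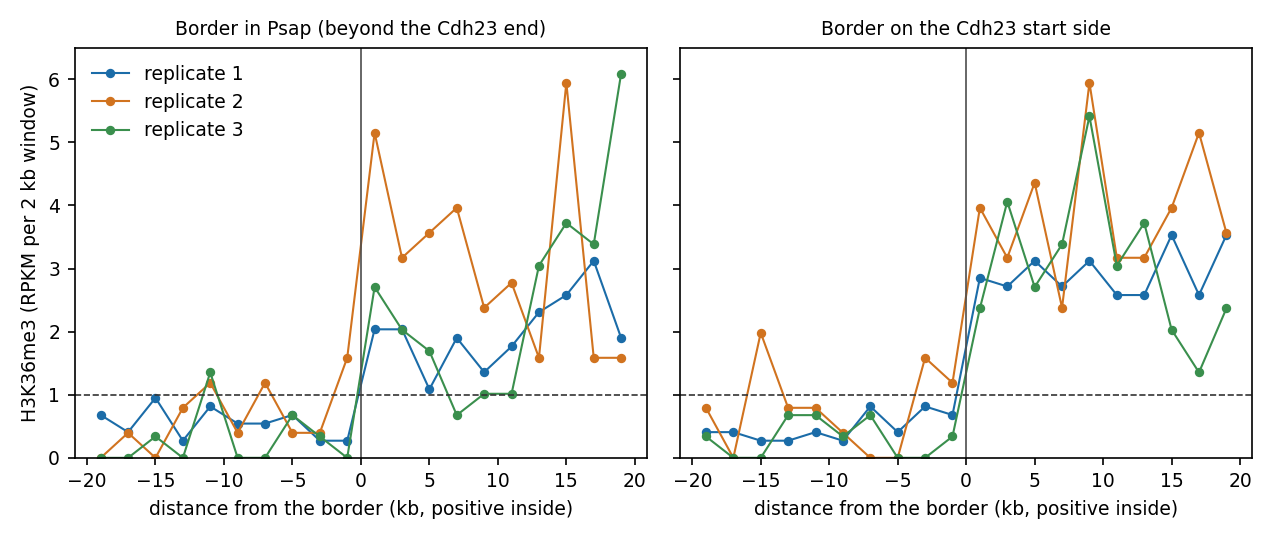
H3K36me3 RPKM of single 2 kb windows in each replicate (points joined by lines) within 20 kb of the domain border in Psap (left) and of the border between the Cdh23 starts (right), against the distance from the border in kb, positive inside the domain. The dashed line is an RPKM of 1; on the start side the windows within 10 kb inside are at 2.37 RPKM or more in every replicate, and those within 10 kb outside are at 1.59 or less.

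Both borders were met by H3K4me3 calls. In Psap, H3K4me3 was called in the 2 windows inside the border and in the window of the Psap start outside it, which had 0.272, 1.59 and 0 RPKM of H3K36me3. Outside this border the H3K4me3 calls ran without a break over chr10:60262001-60278000. H3K27me3 was called as well in the windows of chr10:60262001-60272000, so both calls lay outside each border. At the other border an H3K4me3 stretch of 18 kb, chr10:60660001-60678000, began 2 windows inside the domain and went on for 7 windows outside it. H3K27me3 calls began 2 kb outside this border and filled 30 kb without a break, chr10:60666001-60696000, up to 0.49 kb from the outer Cdh23 start. A further H3K4me3 stretch of 26 kb, chr10:60684001-60710000, held the outer start. Of the 16 windows of Cdh23 outside the domain, 15 had the H3K27me3 call, 14 the H3K4me3 call and 13 both. Over all valid windows 30% had the H3K27me3 call, 28.3% the H3K4me3 call and 8.94% those 2 calls without H3K36me3. The H3K36me3 level of the 16 windows was 0.458, 0.644 and 0.275 RPKM.

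The starts differed in their marks. The window of the outer Cdh23 start had 0.679, 0.396 and 0 RPKM of H3K36me3 and the H3K4me3 call alone. The window of the inner start had 2.72, 2.38 and 3.38 RPKM and the H3K36me3 call alone, and the nearest window with an H3K4me3 call lay 2.67 kb upstream of it. The window of the Vsir start had 2.17, 2.77 and 2.37 RPKM with H3K36me3 and H3K27me3 calls and no H3K4me3 call. The nearest H3K4me3 call to the Vsir start was 64.9 kb away, in Psap. Thus the outer start had lower H3K36me3 than the inner start and the Vsir start in each of the 3 replicates. At 1 window each these values rest on few reads: the window of the Vsir start held 16, 7 and 7.

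Along Cdh23 the level was higher toward the end of the gene. In the third of the gene nearest its start the mean was 2.33, 2.56 and 2.31 RPKM in replicates 1, 2 and 3, in the middle 3.20, 3.34 and 3.34, and nearest the gene end 3.78, 4.00 and 3.76. The replicate values of these 3 parts did not overlap. The log2 ratio of the end part to the start part was 0.68 ± 0.03 (SD, n = 3). It was 0.34 ± 0.02 when the windows of Cdh23 outside the domain were left out, an alternative added after the values were seen, so part of the ratio is the place of the border. The place of the domain fixes this direction in part, and it is given as a description.

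Cut into 10 equal parts from start to end, the gene had a mean of 0.901 ± 0.22 RPKM in the first part, 2.63 ± 0.29 to 3.12 ± 0.06 in parts 2 to 5 and 3.54 ± 0.10 to 4.48 ± 0.51 in parts 6 to 10 (SD, n = 3). The highest was part 8, with 4.37, 4.05 and 5.04 RPKM. Replicate values of parts 2 to 5 ranged from 2.40 to 3.25 RPKM, and neighbouring parts overlapped except for parts 4 and 5, whose highest and lowest values were 2.95 and 3.04. All but 1 of the 15 replicate values of parts 6 to 10 were above 3.25, the exception being replicate 3 of part 9 at 3.15 RPKM. Annotated exons made up 4.30% of Cdh23 and lay unevenly, from 0% of part 4 to 17.5% of part 10, and the part with the most exon sequence, at 3.55 ± 0.20 RPKM, was not the one with the most H3K36me3.

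**Figure D3:**
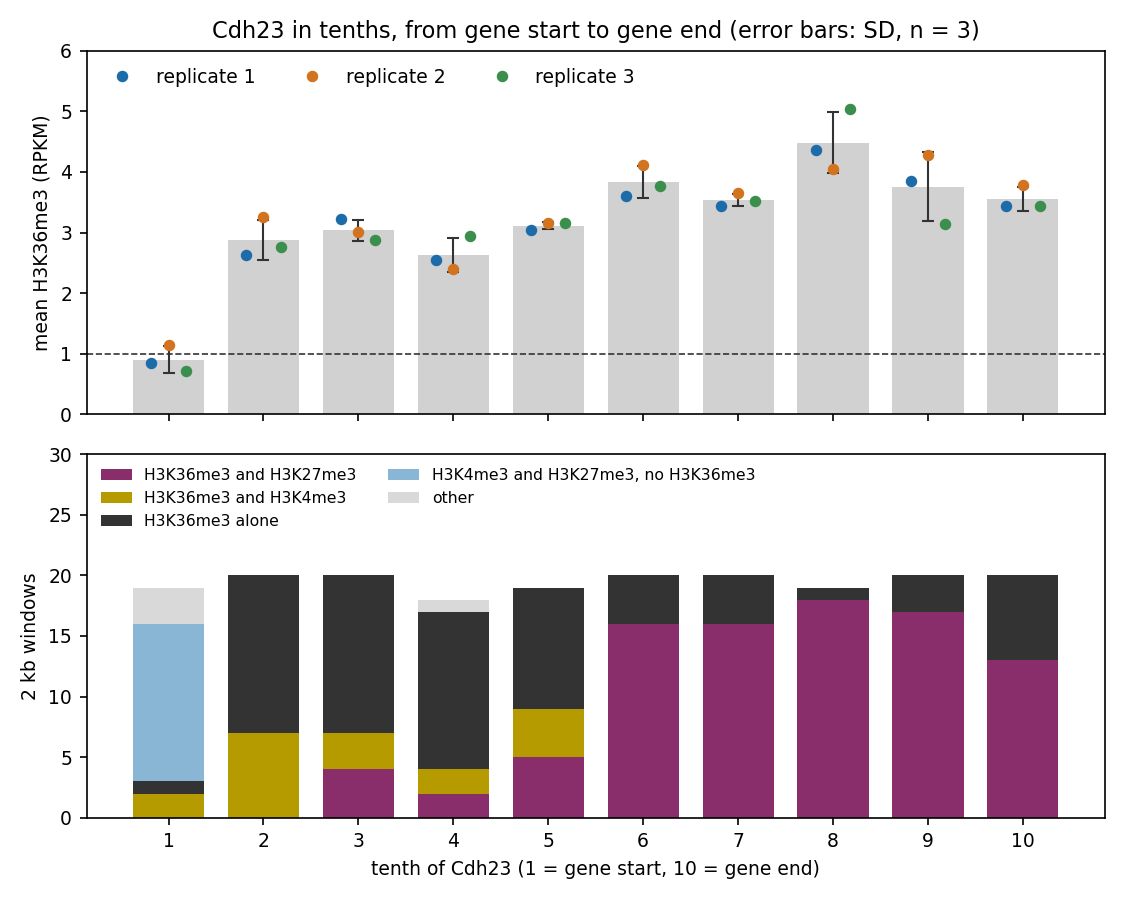
Upper panel, mean H3K36me3 RPKM of the windows in each of 10 equal parts of Cdh23 from gene start (1) to gene end (10), with the mean and SD of 3 replicates as bars and the replicates as points. Lower panel, number of 2 kb windows in each part by the marks called; windows with H3K36me3 and H3K27me3 number 13 to 18 in parts 6 to 10 and 0 to 5 in parts 1 to 5, whereas windows with H3K36me3 and H3K4me3 are found in parts 1 to 5 only.

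The calls for the other marks divided the domain. In Cdh23, 106 of 195 windows had the H3K27me3 call, where 30% of all valid windows had it. The H3K36me3 and H3K27me3 calls met in 91 windows of Cdh23, 46.7% of the gene, where 2.57% of all valid windows carried both. Of the 178 windows of Cdh23 called for H3K36me3, those 91 windows are read against 8.1%, the share of H3K36me3 windows with an H3K27me3 call over the genome. The H3K4me3 call was found in 32 windows of the gene against 28.3% of all valid windows, and together with H3K36me3 in 18 windows, where 5.08% of all valid windows had both. Those 18 of the 178 H3K36me3 windows are read against 16%, the share of H3K36me3 windows with an H3K4me3 call over the genome, and were fewer than that share would give. No window of Cdh23 had all 3 marks, which were rare over the genome as well, in 6132 of 1186323 valid windows. Nothing is read from that 0. The remaining 69 H3K36me3 windows of the gene had that mark alone.

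The windows with both H3K36me3 and H3K27me3 lay nearly all in the part of the gene nearer its end. A stretch of 196 kb, chr10:60314001-60510000, joined over gaps of at most 5 windows, held 85 of the 91 among its 98 windows, and no H3K4me3 call. Toward the gene start from there, the remaining 154 kb of the domain held 6 windows with H3K27me3 (8%) and 18 with H3K4me3 (24%) among 75. Over the genome 8.1% and 16% of H3K36me3 windows had these calls, so the H3K27me3 share there was near the general one. In the 30 kb between the region's lower end and the stretch, over Psap and the last exons of Cdh23, none of 15 windows had either call. Those 15 windows are too few to read against the genome shares. H3K36me3 in the stretch was 3.81, 4.07 and 3.85 RPKM in replicates 1, 2 and 3, against 2.84, 2.91 and 2.88 in the part toward the start and 2.11, 2.75 and 2.73 in the 15 windows beyond. The stretch was thus the higher part in every replicate. The longest unbroken runs of both calls were 58 kb, at chr10:60360001-60418000, and 50 kb, at chr10:60428001-60478000.

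Divided at the middle of the transcript from the inner start, the part nearer the gene end had H3K27me3 in 82.0% of its 89 H3K36me3 windows and H3K4me3 in 0%. The part nearer the start had H3K27me3 in 20.9% and H3K4me3 in 18.6% of its 86 H3K36me3 windows. Over the genome the shares among H3K36me3 windows were 8.1% for H3K27me3 and 16% for H3K4me3. The H3K4me3 share of the part nearer the start was thus within a few percentage points of that of H3K36me3 windows in general. Base composition moved little with this division: GC content was 51.5% and 50.4%, CG dinucleotides 13.5 and 11.9 per kb, and repeats 18.3% and 19.1% of the sequence, in the end part and the start part. Their part in the difference was not tested.

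Windows with both calls had more H3K36me3 than windows with H3K36me3 alone within Cdh23. The 91 windows with both had 3.86, 4.19 and 3.89 RPKM in replicates 1, 2 and 3, and the 69 windows with H3K36me3 alone had 2.95, 3.03 and 3.06. The replicate means of the 2 kinds did not overlap, and the log2 ratio was 0.40 ± 0.06 (SD, n = 3), higher in 3 of 3 replicates. Single windows did overlap, with means of 1.81 to 7.56 RPKM against 1.32 to 4.83. An exact two-sided permutation test that flips the signs of the replicates returned p = 0.25, and 0.25 after adjustment over 3 tests, which is the smallest value that 3 replicates allow. Each of the 91 windows was above 1 in every replicate, as were 58 of the 69. Over all valid windows the order was the other way. Windows with both calls and no H3K4me3 call had 1.92 ± 0.22 RPKM there, and windows with H3K36me3 alone had 2.17 ± 0.14. The same order was found within the 196 kb stretch alone, an alternative added after the values were seen. There 85 windows with both had 4.05 ± 0.16 RPKM and 13 with H3K36me3 alone had 3.01 ± 0.14, a log2 ratio of 0.43 ± 0.09. Those 13 windows are few, and 3 of them lay in Vsir. The part of position along the gene in the difference was not tested. Windows with H3K36me3 and H3K4me3 had the least of the 3 kinds, 2.38 ± 0.01 RPKM over 18 windows.

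Exon windows had somewhat more H3K36me3 than intron windows. The 53 windows of Cdh23 with at least 1 exon base of any transcript had 3.67, 3.75 and 3.95 RPKM, and the 142 windows without had 2.90, 3.13 and 2.84. The log2 ratio was 0.36 ± 0.11 (SD, n = 3), higher in 3 of 3 replicates, and the same exact permutation test returned p = 0.25, and 0.25 after adjustment. With the windows of Cdh23 outside the domain left out, an alternative added after the values were seen, the log2 ratio was 0.25 ± 0.10. Exons lay mostly toward the gene end, with 12049 of 16939 exon bases in the nearer part of the inner transcript. Within that part the exon windows had 3.95, 4.25 and 4.19 RPKM against 3.64, 3.64 and 3.53 in intron windows. In the part toward the start the order was not shared by the replicates: 12 exon windows had 3.01, 2.35 and 3.44 RPKM, and 75 intron windows 2.90, 3.27 and 2.90.

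Vsir had less H3K36me3 than the Cdh23 sequence within 20 kb on either side of it. Its 13 windows had 3.30, 3.81 and 2.71 RPKM, and the 20 windows within 20 kb on either side had 4.69, 4.92 and 4.70. The log2 ratio was -0.56 ± 0.22 (SD, n = 3), lower in 3 of 3 replicates, and that exact permutation test returned p = 0.25, and 0.25 after adjustment over the 3 tests. The flanks were unequal: the 10 windows before the Vsir start had 4.06, 4.12 and 3.69 RPKM and the 10 beyond its end 5.31, 5.71 and 5.72. Vsir was below both flanks in each replicate. The flank beyond the Vsir end held 4 of the 5 windows with the highest mean in Cdh23, among them the highest of all, chr10:60388001-60390000, with 6.79, 6.74 and 9.14 RPKM. Against flanks of 50 kb, which had 3.92, 3.97 and 4.19 RPKM, the log2 ratio was -0.31 ± 0.29.

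Within Vsir the level was lower at the start than at the end of the gene. The 7 windows nearer the start had 2.74, 3.11 and 2.42 RPKM, and the 6 nearer the end 3.96, 4.62 and 3.05. The first 6 windows had means of 2.07 to 2.77 RPKM and the highest, 18.15 kb from the Vsir start, 5.40. The H3K27me3 call was found in 10 of the 13 windows, where 30% of all valid windows had it. The H3K4me3 call was found in 0, where 28.3% of all valid windows had it. With 13 windows nothing is read from that 0. Exon sequence made up 19.4% of Vsir, and it filled all 2000 bases of the final window, which had 4.75, 3.17 and 1.69 RPKM.

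**Figure D4:**
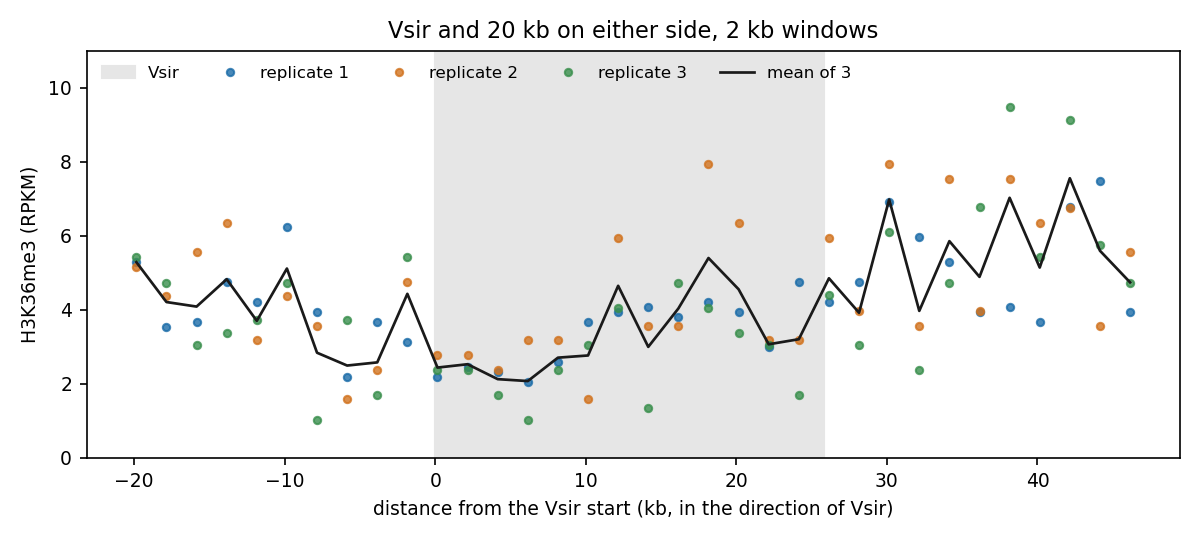
H3K36me3 RPKM of 2 kb windows in Vsir (grey band) and 20 kb on either side, in each replicate (points) and as the mean of 3 (line), against the distance from the Vsir start in kb. The means of the first 6 windows of Vsir lie between 2.07 and 2.77, and the windows beyond its end, in Cdh23, include the highest mean of the region at 7.56.

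How far single windows can be read was limited by depth. Median reads per window within the domain were 23, 8 and 9 in replicates 1 to 3. The variance of the reads over windows was 3.08, 2.35 and 2.21 times the mean, where counting alone would give about 1, and duplicate reads may be among them. Pearson's r between replicates over the 188 windows of the domain in the region was 0.392 for replicates 1 and 2, 0.403 for 1 and 3 and 0.276 for 2 and 3, a description across windows that share libraries. Of those 188 windows 16 were not above 1 in each replicate. Among these 16, 8 were low in replicate 2 only, 6 in replicate 3 only, 1 in replicate 1 only and 1 in more than 1 replicate. These gaps were thus mostly in the shallower libraries. The longest runs above 1 in all 3 replicates were 104 kb, chr10:60314001-60418000, and 102 kb, chr10:60424001-60526000. The first of these had 48 of its 52 windows called for H3K27me3, where 30% of all valid windows had that call.

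Cdh23 was also placed among other long genes. Among 2439 protein-coding genes with at least 50 windows, 4 had a mean H3K36me3 at or above that of Cdh23, itself included, and the median gene had 1.36 RPKM. By the share of windows with both calls, 15 genes were at or above its 46.7%, itself included, against a median of 0%. Each mark's share of windows on its own was less extreme: 588 genes were at or above Cdh23 by the H3K27me3 share and 476 by the H3K36me3 share, itself included. The level chose the gene, so its place in the first order is a description.

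The 5 long genes whose shares of the 3 calls were nearest to those of Cdh23, by Euclidean distance over the 3 shares in percentage points, were Lrp2 (distance 3.13), Efcab6 (7.99), Flt1 (8.29), Plpp4 (9.42) and Greb1 (10.7). Lrp2 encodes the endocytic receptor megalin, Flt1 a receptor of vascular endothelial growth factor and Greb1 an oestrogen-responsive protein. Their H3K36me3 levels were 2.92 ± 0.40 RPKM for Lrp2, 2.15 ± 0.23 for Efcab6, 2.61 ± 0.38 for Flt1, 2.18 ± 0.40 for Plpp4 and 2.77 ± 0.12 for Greb1 (SD, n = 3). Windows with both calls and no H3K4me3 call were set against windows with H3K36me3 alone. In each of the 5 genes the former had the higher mean in 3 of 3 replicates, as in Cdh23. In replicate 1 of Efcab6 the 2 kinds were nearly level, at 2.18 and 2.17 RPKM. The log2 ratio of the 2 kinds of window was 0.33 ± 0.04 in Lrp2, 0.10 ± 0.08 in Efcab6, 0.46 ± 0.23 in Flt1, 0.71 ± 0.09 in Plpp4 and 0.52 ± 0.22 in Greb1. The value of Cdh23, 0.40, lay within this range. The order seen in Cdh23 was thus also seen in the genes most like it, though least clearly in Efcab6.

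**Figure D5:**
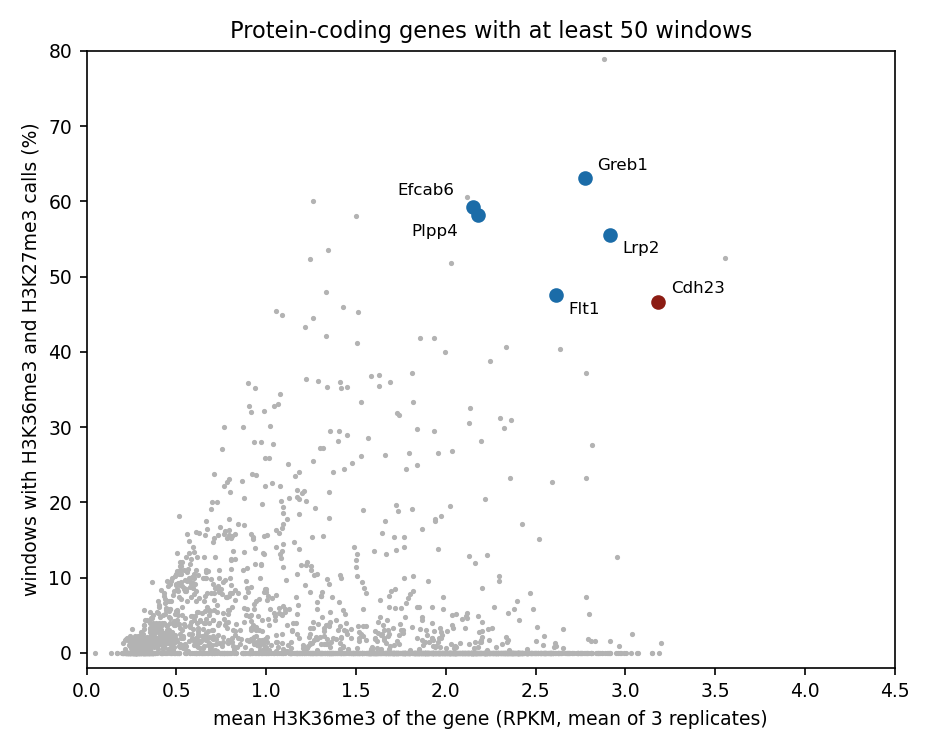
Share of windows with both H3K36me3 and H3K27me3 calls (percent) against the mean H3K36me3 RPKM of the gene (mean of 3 replicates) for 2439 protein-coding genes with at least 50 windows, with Cdh23 (red) and the 5 genes nearest to it in their shares of calls (blue) named. Cdh23 lies at 3.18 RPKM and 46.7%, and most genes lie near 0%.

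Partners of Cdh23 in the hair bundle mostly had lower H3K36me3 in the mean. Cdh23 was picked by its level, so this order is a description and nothing is read from it. Of the 14 other genes reported from the tip link and Usher syndrome list, 6 had a mean above 1, against 53.6% of all protein-coding genes, and their median was 0.935 RPKM, against 1.17 over all 20450. Pcdh15, which encodes the cadherin that binds cadherin 23 in the tip link, had 1.52 ± 0.05 RPKM and H3K27me3 calls in 1.62% of its 743 windows. Loxhd1, a hair bundle gene, was the only member reported with a higher mean than Cdh23, at 3.55 ± 0.50 RPKM. It was below Cdh23 in replicate 1, at 2.98 against 3.11 RPKM, and above it in replicates 2 and 3. Loxhd1 had both calls in 52.5% of its 80 windows, where 2.57% of all valid windows had both. The scaffold genes Ush1c and Ush1g, at 0.356 ± 0.16 and 0.338 ± 0.37 RPKM, had H3K27me3 calls in 100% of their windows, which numbered 21 and 3. Over all valid windows 30% had that call. Myo7a, which encodes the motor myosin of the bundle, had 1.46 ± 0.11 RPKM and both calls in 14.7% of its windows.

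Most genes of the immune checkpoint list had little H3K36me3. Of the 19 other members 6 had a mean above 1, against 53.6% of all protein-coding genes, and their median was 0.430 RPKM, against 1.17 over all. The highest of them were Tnfrsf14 at 2.61 ± 0.64 RPKM, Icosl, the ligand of ICOS, at 2.59 ± 0.12 and Tigit at 2.58 ± 0.22. Vsir, at 3.27 ± 0.55, was above all 19 in the mean. It lies in a region picked by this level, so its place is a description and nothing is read from it. The ligands of PD-1, Cd274 and Pdcd1lg2, were at 0.295 ± 0.17 and 0.360 ± 0.095 RPKM. They had H3K36me3 calls in 0% of their 10 and 31 windows, where 31.8% of all valid windows had that call. Igsf11, which encodes a ligand of VISTA, had 1.34 ± 0.09 RPKM. Vsir lies wholly inside the Cdh23 domain, and H3K36me3 carries no strand, so its signal and that of Cdh23 cannot be told apart there.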

How the data were processed

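H3K36me3 was measured in 3 replicate pools, and the report uses the 2 kb windows of the region on chromosome 10. The methods state that the authors mapped trimmed reads with Bowtie2 (version 2.2.9, build GRCm38, per the labels) and counted them over windows in SeqMonk, leaving out windows with extreme input. Whether duplicates were removed is not given in the sources used here. The deposited values are named RPKM by the authors, on a linear scale and with replicates apart. The other deposited table names the marks called in each window. Its H3K36me3 call was identical to a mean RPKM above 1 in every valid window (0 differences), and windows it does not list were taken as unmarked.

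Columns were assigned by their headings, and 0 columns of per-sample values were left unused. Reads were recovered from the step of the RPKM values, and depth per replicate is given with the results. A window belonged to a gene if its midpoint lay between the gene's ends in GENCODE (release M21, GRCm38). The level of a gene or part was the mean RPKM over its windows in each replicate, then mean ± SD over replicates. With all samples in a single group, groups were not compared. Only 3 comparisons used positions or calls that had not chosen the region, and they were tested by an exact two-sided sign-flip permutation test of the log2 ratio without a pseudocount, with Benjamini-Hochberg adjustment, as was checked on simulated data. Domains joined windows over gaps of at most 2 measured windows. Windows missing from the table were passed over, a reading settled after the values were seen.

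The members and lists were chosen with earlier results of these data known. Genes were named by rule: Cdh23 and Vsir, genes overlapping the region, a tip link and Usher list (15 genes, with 1 further gene not reported here), an immune checkpoint list (20 genes), the 5 nearest long genes by shares of calls, and marker lists of 10 genes each. Windows and runs singled out within these genes were chosen after their values were seen. Alternatives were each replicate left out, medians, a minimum of 5 reads, a pseudocount of 0.5, thresholds of 1.5 and 2, other gaps, equal depth and other windows for each test. Python 3.11.15, numpy 2.4.6, pandas 2.3.3 and matplotlib 3.10.9 were used.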

Additional observations from a re-analysis of the deposited data

How the results depend on the processing

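No value changed direction under any of the 74 alternative values computed. Counts, lengths and levels have no direction to change, and the direction of the border steps was fixed by the values that placed the borders. For these the lack of a change says nothing about stability. Of the 74 values 65 stayed within the spread between replicates, within 1.5 times the count, or on the same side of the test's threshold. Since 3 replicates cannot give a p below 0.25, and 2 cannot give one below 0.5, the threshold says nothing about stability here. The other 9 moved. The log2 ratio of the Cdh23 end part to its start part, 0.68, was 0.52 with medians over windows, 0.58 with windows of at least 5 reads, 0.59 with a pseudocount of 0.5 RPKM and 0.34 with windows of the domain only. With that pseudocount the border steps were 1.49 on the gene end side and 2.01 on the gene start side. The longest run above the threshold in all replicates, 104 kb, was 46 kb at a threshold of 1.5, 32 kb at 2 and 56 kb with reads drawn down to the depth of replicate 2, so its length depends on depth and threshold. The domain was 268 kb with no gap joined, or with windows missing from the table counted as a gap, and 398 kb with gaps of 5. The median gave no border step on the gene end side, because a median outside was 0. Leaving out each replicate in turn gave 3.12 to 3.22 RPKM for Cdh23, 3.00 to 3.56 for Vsir and a log2 ratio of -0.65 to -0.44 for Vsir over its flanks. Alternatives restricted to the domain, to the stretch of H3K27me3 calls or to the part toward the gene end, and the gap reading, were added after the data were seen. The ratios compare windows within each replicate and are paired by library, and no further replicate block could be fitted because the samples form a single group.

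The limits are of depth and of design. Single windows held few reads, and the place of the borders depended on the setting. The domain of 386 kb was 390 kb without replicate 3, 398 kb with gaps of 5 windows joined and 268 kb with no gap joined. The calls for H3K27me3 and H3K4me3 had no replicates, came from other libraries of pooled oocytes, and cannot show whether both marks lay on the same molecules or in the same cells. H3K36me3 has no strand, so Vsir and Cdh23 cannot be told apart where they overlap.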
